A study of Mus musculus with 10 samples.

Results

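The genes described here are 33 mouse genes of sterol and fatty acid synthesis, chosen by symbol from the 24421 genes measured. They are 7 genes of the mevalonate steps, 11 of the squalene and sterol steps, 6 Srebp regulators and sterol carriers, and 9 of fatty acid synthesis, elongation and desaturation. Total RNA of 8-cell embryos was sequenced in 10 libraries, 2 in each of 5 groups. All groups shared the BDF1 genotype. In siTfap2c embryos the transcription factor Tfap2c, of the AP-2 family, was knocked down. In siKlf5 embryos the Krüppel-like factor Klf5 was knocked down. Arpc1bE_CdxE1_KO and CdxE2_KO embryos carried knockouts of Tfap2c motifs, whose positions are not in the labels. Ctrl embryos are labelled only as control, with no mention of a control siRNA. The labels do not say how many embryos went into a library or whether the 2 libraries of a group came from separate pools, so a p-value reflects no more than the spread of the libraries at hand, which may be technical.

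Cells build cholesterol from acetyl-CoA through mevalonate, farnesyl diphosphate, squalene and lanosterol, and they build fatty acids from the same acetyl-CoA. The Srebp transcription factors, encoded by Srebf1 and Srebf2, switch on both pathways when membrane sterol is low. Scap escorts the Srebp precursors to the Golgi for cleavage, and the Insig proteins hold Scap back when sterol is plentiful. The desaturases Scd1 and Scd2 put the double bond into oleate and palmitoleate, and the Fads and Elovl enzymes make longer and more unsaturated chains. In cleavage-stage embryos these lipids serve new membrane and stored lipid droplets.

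The values are abundances on a log2(abundance + 1) scale, as deposited. What kind of abundance this is was not named, and no read counts were used, so the depth is unknown, no level is compared between genes, and the difference of a gene with a low value is understated. The libraries' linear abundances summed to 388454 to 395401 units in the knockdown and Ctrl libraries and to 478651 to 498621 units in the 4 motif knockout libraries. Tfap2c stood at 3.94 and 4.09 log2 units in siTfap2c embryos and at 6.61 in both Ctrl libraries. Klf5 stood at 4.36 and 4.17 in siKlf5 embryos, at 5.32 and 5.45 in siTfap2c embryos, and at 7.20 and 7.13 in Ctrl embryos, so it was lower in both knockdowns. Cdx2, a trophectoderm transcription factor gene, stood at 0.77 and 1.53 in Arpc1bE_CdxE1_KO embryos, 0.82 and 0.93 in CdxE2_KO embryos, and 2.35 and 2.48 in Ctrl embryos. Arpc1b, an actin-branching gene, stood at 3.27 and 3.30 in Arpc1bE_CdxE1_KO embryos, 4.66 and 4.84 in CdxE2_KO embryos, and 4.48 and 4.71 in Ctrl embryos. Of 10 markers of the preimplantation embryo, 7 to 8 exceeded 1 linear unit in every library, and of 13 cumulus and granulosa cell markers 1 to 2 did. Fshr and Inha, which define granulosa cells, were listed at 0 in every library, but a 0 can be a failed estimate here, since Gapdh, used by every cell, was itself listed at 0 in 2 libraries and at no more than 0.81 log2 units in the others. Over all 10 libraries the summed level of the 13 cumulus and granulosa markers ran between 2.77 and 4.06 linear units.

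A gene was tested when it reached 1 linear unit in 2 libraries, which 30 of the 33 genes did. Mvk (mevalonate kinase, 0.32 to 0.75 log2 units), Sc5d (a sterol desaturase, 0.38 to 1.00) and Fads2 (a front-end fatty acid desaturase, 0.00 to 0.32) did not. Changes were called at an adjusted p under 0.05 (limma, Benjamini-Hochberg over all genes tested).

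Knockdown of Tfap2c raised 9 of the 30 genes and lowered 2, against 12.6% of the 11195 genes tested that were called higher and 11.9% that were called lower. The rises lay among the enzymes of cholesterol synthesis (Hmgcs1, Fdps, Fdft1, Sqle, Ebp and Dhcr7) and among the desaturases (Scd1, Scd2 and Fads1). The falls were those of the sterol carrier Stard4 and the elongase Elovl6. The median difference of the 30 genes was 0.18 on the log2 scale, beside 0.04 over all genes tested. The calls of 8 genes (Fdps, Fdft1, Sqle, Dhcr7, Scd2, Fads1, Stard4 and Elovl6) were kept in each of the 4 fits that left out 1 library and under the other 7 settings tried. The Ctrl libraries stand in a separate deposited table from each knockdown, so these differences are set across tables.

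**Figure D1:**
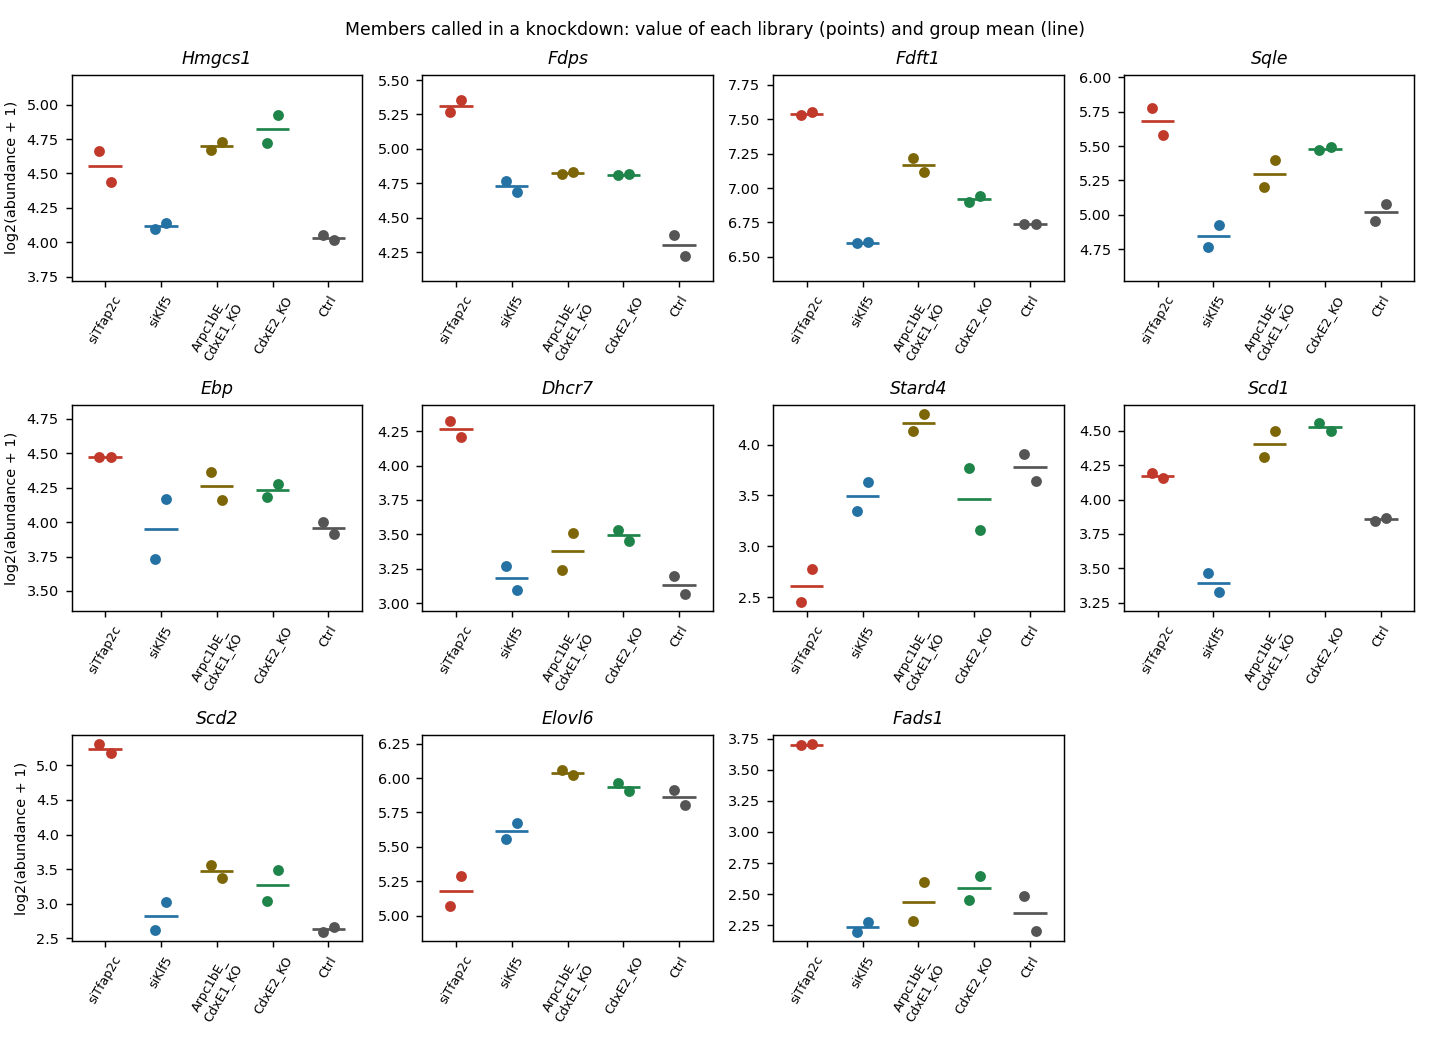
Values on the log2(abundance + 1) scale of the 11 genes called in a knockdown, with groups on the horizontal axis, a point for each library and a line at each group's mean. Scd2, Dhcr7 and Fads1 are higher in both siTfap2c libraries than in all the other libraries, and Stard4 and Elovl6 are lower there.

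In the mevalonate branch, Hmgcs1 and Fdps were called higher of the 6 genes tested, against 12.6% of all genes tested. The median difference of the 6 was 0.06. Hmgcs1 (chromosome 13, 119690379 to 119708260, mm10), the synthase that makes HMG-CoA, stood at 4.67 and 4.44 in siTfap2c embryos and at 4.05 and 4.02 in Ctrl embryos. The groups did not overlap, and the difference was 0.52 ± 0.11 on the log2 scale (SE, adjusted p = 0.0065). Without siTfap2c replicate 1 its call was lost (adjusted p = 0.062). Fdps (chromosome 3, 89093588 to 89101959), farnesyl diphosphate synthase, stood at 5.26 and 5.36 in siTfap2c embryos, against 4.38 and 4.22 in Ctrl embryos. Its difference of 1.01 ± 0.09 corresponds to a 2.01-fold rise of abundance plus 1 (adjusted p = 4.6e-05). The intermediate enzymes between them did not pass the test. Differences were -0.05 for phosphomevalonate kinase (Pmvk), -0.28 for the decarboxylase Mvd and -0.03 for the isomerase Idi1, and 0.14 for the thiolase Acat2.

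In the squalene and sterol branch, 4 of 10 genes tested were called higher and none lower, against 12.6% and 11.9% of all genes tested. The median difference of the branch was 0.39. Fdft1 (chromosome 14, 63145150 to 63179578) is squalene synthase, the first enzyme committed to sterols. It stood at 7.53 and 7.55 in siTfap2c embryos and at 6.74 in both Ctrl libraries, a difference of 0.81 ± 0.07 (adjusted p = 3.5e-05). Fdft1 overlaps Ctsb on the opposite strand, and whether reads were counted by strand is not given in the sources used here. Ctsb moved the other way, at 6.05 and 6.0 in siTfap2c embryos and 6.39 and 6.42 in Ctrl embryos (difference -0.38, adjusted p = 0.0070). Sqle (chromosome 15, 59315077 to 59331192), squalene epoxidase, stood at 5.78 and 5.58 in siTfap2c embryos and at 4.96 and 5.08 in Ctrl embryos, a difference of 0.66 ± 0.10 (adjusted p = 0.0017). Dhcr7 (chromosome 7, 143823145 to 143848410) encodes the reductase that finishes cholesterol. It stood at 4.32 and 4.21 in siTfap2c embryos, against 3.19 and 3.06 in Ctrl embryos. Its difference of 1.14 ± 0.12 was the largest of this branch (2.20-fold in abundance plus 1, adjusted p = 0.00021). Ebp (chromosome X, 8185329 to 8193512), the sterol isomerase, stood at 4.47 in both siTfap2c libraries and at 4.0 and 3.92 in Ctrl embryos. Its difference of 0.52 ± 0.14 (adjusted p = 0.024) lost its call in all 4 fits that left out 1 library, where adjusted p reached 0.12, and with no filter on low values.

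The other 6 sterol genes tested act between Sqle and Ebp in the pathway. Lanosterol synthase (Lss) differed by 0.26 and the lanosterol demethylase Cyp51 by 0.51 (adjusted p = 0.086). Cyp51 stood at 2.1 and 2.18 in siTfap2c embryos and at 1.74 and 1.52 in Ctrl embryos, and it was called when these 2 groups were fitted alone (adjusted p = 0.035). The sterol reductase Tm7sf2 differed by 0.23, and the demethylation enzymes Msmo1, Nsdhl and Hsd17b7 by 0.11, -0.18 and -0.22. None of the 6 passed the test, although the difference of Cyp51 was as large as that of Ebp, and the 2 were not tested against each other.

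Sequences before the start were looked up for the 33 genes, and 26 were matched in RefSeq's promoter table (GRCm38.p6). Fdps, Fdft1, Sqle, Stard4, Scd1, Scd2 and Fads1 were not matched. The 250 bases before the start are shown for the 3 genes called higher in siTfap2c embryos that were matched. Binding of any factor to them was not measured. They are chr13:119690101-119690350 (+) for Hmgcs1, chr7:143822917-143823166 (+) for Dhcr7 and chrX:8193513-8193762 (-) for Ebp, each 5′ to 3′ on the gene's strand. Capitals mark exact matches on either strand to the AP-2 motif GCCNNNGGC, the sterol response element-like TCACNCCAC, the NF-Y box CCAAT, the GC box GGGCGG and the Klf-type box CCACACCC.
Hmgcs1: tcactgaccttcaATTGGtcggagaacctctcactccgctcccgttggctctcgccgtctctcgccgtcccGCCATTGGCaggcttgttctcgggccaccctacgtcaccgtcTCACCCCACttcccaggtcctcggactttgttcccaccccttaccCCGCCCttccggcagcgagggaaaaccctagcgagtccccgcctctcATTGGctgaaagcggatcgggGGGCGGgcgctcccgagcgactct
Dhcr7: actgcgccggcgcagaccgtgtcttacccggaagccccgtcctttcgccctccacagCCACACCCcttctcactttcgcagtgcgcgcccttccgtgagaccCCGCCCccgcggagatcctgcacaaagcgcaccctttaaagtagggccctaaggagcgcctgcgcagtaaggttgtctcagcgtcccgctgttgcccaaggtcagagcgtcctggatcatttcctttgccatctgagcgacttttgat
Ebp: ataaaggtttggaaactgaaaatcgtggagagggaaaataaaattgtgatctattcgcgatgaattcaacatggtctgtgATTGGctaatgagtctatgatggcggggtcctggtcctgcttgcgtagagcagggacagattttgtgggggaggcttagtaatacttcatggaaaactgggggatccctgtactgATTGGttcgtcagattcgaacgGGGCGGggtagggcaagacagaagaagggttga

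The Hmgcs1 sequence holds both an AP-2 match, whose first base lies 179 bases before the start, and a sterol response element-like match 137 bases before it. The AP-2 match encloses an NF-Y box, so the same letters count for both motifs. In the window of 250 bases before to 50 after the start, 9 of the 26 matched genes held an AP-2 match (Acly, Fads2, Fasn, Hmgcs1, Idi1, Mvk, Scap, Srebf1 and Srebf2). Among all 27025 genes of the table the share was 18.5%, and among those tested in the Tfap2c knockdown comparison it was 29.0%. Of the 4 matched genes called in siTfap2c embryos 1 held it, beside 8 of the 22 that were not called. The other genes called there, Scd2 and Fads1 among them, were not matched, so these counts cannot show whether called genes hold it less often. The sterol response element-like letters were found in Hmgcs1 alone (1.44% of all genes). A gene counted when any of its starts in the table held the motif, so Dhcr7, with 3 starts, counts as holding an NF-Y box that the stretch printed above lacks. NF-Y boxes were found in 21 of 26, beside 41.1% of all genes and 43.5% of the tested genes. GC boxes were found in 21, beside 38.2% of all genes and 69.2% of the tested genes. The Klf-type box was found in 2, Acat2 and Dhcr7, beside 4.09% of all genes. These matches describe letters and are not binding sites.

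Of the Srebp regulators and sterol carriers, 1 of 6 genes tested was called. It was lower, a count near the 11.9% of all genes tested that were called lower. Stard4 (chromosome 18, 33199355 to 33213862), which moves sterol between membranes, stood at 2.46 and 2.77 in siTfap2c embryos and at 3.91 and 3.64 in Ctrl embryos. Its difference was -1.16 ± 0.21 (adjusted p = 0.0031), opposite in direction to the 4 sterol enzymes called. The Srebp genes themselves did not pass the test. Srebf1 differed by -0.02 (adjusted p = 0.96), and Srebf2, the main regulator of the sterol branch, by -0.15 (adjusted p = 0.52). Scap differed by -0.23 (adjusted p = 0.15) and Insig1, itself an Srebp target in other cells, by 0.28 (adjusted p = 0.21). Insig2 stood at 1.7 and 1.86 in siTfap2c embryos and at 0.96 and 0.83 in Ctrl embryos. Its difference of 0.88 ± 0.33 was not called over all libraries (adjusted p = 0.084) and was called when the 2 groups were fitted alone (adjusted p = 0.0044).

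Of the 8 fatty acid genes tested, 3 were called higher and 1 lower, against 12.6% and 11.9% of all genes tested. The lower count lies near that share, and the median difference of the branch was 0.12. Scd2 (chromosome 19, 44293674 to 44306864), a stearoyl-CoA desaturase, had the largest difference of the 30 genes. It stood at 5.30 and 5.18 in siTfap2c embryos and at 2.59 and 2.67 in Ctrl embryos, a difference of 2.61 ± 0.17 (adjusted p = 1.1e-05). Its mean was 36.9 linear units in siTfap2c embryos and 5.20 in Ctrl embryos. Scd1 (chromosome 19, 44394455 to 44407879) lies 87.6 kb from Scd2 and encodes the same enzyme activity. It stood at 4.19 and 4.16 in siTfap2c embryos and at 3.85 and 3.87 in Ctrl embryos. Its difference was 0.32 ± 0.10 (adjusted p = 0.041). This call was lost in all 4 fits that left out 1 library and when libraries were centred or scaled. It was also lost with no filter on low values and with replicate number as a block, and kept in 3 of the 7 other settings. The Scd genes are closely similar in sequence, so reads could be split between them, although Scd3 reached at most 1.53 and Scd4 at most 0.16 log2 units.

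Fads1 (chromosome 19, 10182888 to 10196877), a desaturase of polyunsaturated chains, stood at 3.69 and 3.70 in siTfap2c embryos and at 2.48 and 2.21 in Ctrl embryos. Its difference was 1.35 ± 0.15 (2.56-fold in abundance plus 1, adjusted p = 0.00022). Elovl6 (chromosome 3, 129532355 to 129638495) elongates palmitate and was lower, at 5.07 and 5.29 in siTfap2c embryos and 5.91 and 5.80 in Ctrl embryos. Its difference was -0.68 ± 0.09 (adjusted p = 0.00073). The other fatty acid genes tested did not pass the test. Fatty acid synthase (Fasn) differed by -0.30 (adjusted p = 0.077), acetyl-CoA carboxylase (Acaca) by 0.22, ATP citrate lyase (Acly) by -0.17 and the elongase Elovl5 by 0.01. Fasn was called lower when the 2 groups were fitted alone (adjusted p = 0.013).

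**Figure D2:**
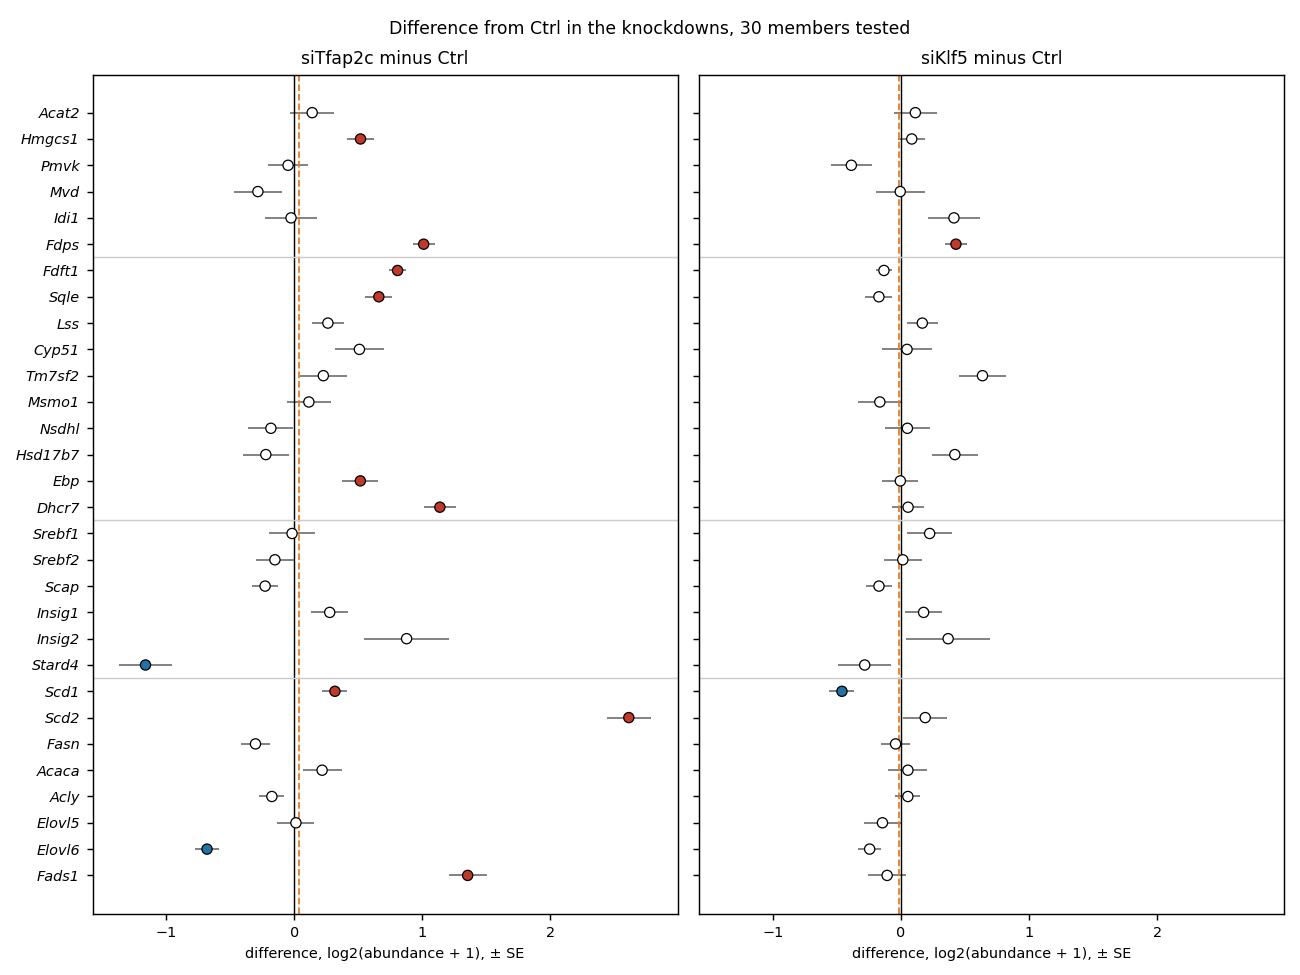
Difference from Ctrl, in log2 units with its SE, of the 30 genes tested in siTfap2c embryos (left) and siKlf5 embryos (right), with the branches set apart by grey lines. Red points were called higher, blue points lower and white points not called, and the dashed line is the median of all genes tested. Scd2 stands at 2.61 in siTfap2c embryos, far to the right of the other genes.

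The embryo markers moved in the same libraries as these changes. Their summed level was 443 and 446 linear units in siTfap2c embryos and 936 and 910 in Ctrl embryos. All 8 markers tested were called lower, against 11.9% of all genes tested. Tfap2c itself is among these markers, as are Klf5 and Cdx2. Without these 3 the sum was 389 and 386 in siTfap2c embryos and 690 and 669 in Ctrl embryos, and 5 of 5 markers tested were called lower. The cumulus and granulosa marker sum was 3.97 and 3.68 linear units in siTfap2c embryos and 3.27 and 2.77 in Ctrl embryos, with Fshr and Inha listed at 0. The part of either in the changes of the sterol and fatty acid genes was not tested. In such bulk material fewer cells of a type and less RNA per cell cannot be told apart.

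In siKlf5 embryos 2 of the 30 genes were called, 1 in each direction. These counts lie near the shares of all genes tested, 2.25% called higher and 5.27% called lower. With libraries centred on their medians, the calls over all genes were 379 higher and 441 lower, in place of 252 and 590. Fdps was higher, at 4.77 and 4.69 in siKlf5 embryos and 4.38 and 4.22 in Ctrl embryos, a difference of 0.43 ± 0.09 (adjusted p = 0.019). Scd1 was lower, at 3.46 and 3.32 in siKlf5 embryos and 3.85 and 3.87 in Ctrl embryos, a difference of -0.46 ± 0.10 (adjusted p = 0.023). Both genes' groups were apart, but both calls were lost in each of the 4 fits that left out 1 library, where adjusted p reached 0.13 for Fdps and 0.15 for Scd1. The median difference of the 30 genes was 0.05, beside -0.02 over all genes.

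The other 28 genes did not pass the test. Hsd17b7 differed by 0.42 (adjusted p = 0.20) and Pmvk by -0.39 (adjusted p = 0.18), and neither gene's groups overlapped. Fdft1 differed by -0.13 (adjusted p = 0.27), Sqle by -0.17 (adjusted p = 0.38) and Stard4 by -0.28 (adjusted p = 0.47). Tm7sf2 stood at 1.10 and 0.92 in siKlf5 embryos and at 0.54 and 0.21 in Ctrl embryos, a difference of 0.64 ± 0.18 that was not called (adjusted p = 0.066). With libraries centred on their medians it was called (difference 0.69, adjusted p = 0.048). Insig2 stood at 1.90 and 0.63 in siKlf5 embryos, the widest gap between replicates of any of the 33 genes in this group, so its difference of 0.37 rests on 1 library. Without siKlf5 replicate 2 it was 1.00 (adjusted p = 0.045).

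Set directly against each other, the 2 knockdowns differed in 12 of the 30 genes. In siTfap2c embryos 9 were higher and 3 lower than in siKlf5 embryos, against 15.1% and 10.5% of all genes tested. With libraries centred on their medians the calls over all genes were 1279 higher and 1472 lower, in place of 1693 and 1172. The 9 higher genes were Hmgcs1, Fdps, Fdft1, Sqle, Ebp, Dhcr7, Scd1, Scd2 and Fads1. Scd2 differed by 2.42 (adjusted p = 2.0e-05), Fads1 by 1.46 (adjusted p = 0.00016) and Dhcr7 by 1.08 (adjusted p = 0.00031). Scd1 differed by 0.78 (adjusted p = 0.00050), a larger difference than either knockdown showed from Ctrl, as it stood above Ctrl in siTfap2c embryos and below Ctrl in siKlf5 embryos. The lower genes were Stard4 (-0.88, adjusted p = 0.013), Elovl6 (-0.44, adjusted p = 0.0077) and Hsd17b7, which encodes a sterol ketoreductase (-0.64, adjusted p = 0.027). Hsd17b7 stood at 1.19 and 1.13 in siTfap2c embryos and at 1.83 and 1.77 in siKlf5 embryos. Leaving out 1 library kept the calls of Fdps, Fdft1, Sqle, Dhcr7, Scd1, Scd2 and Fads1 in all 4 fits. Elovl6 and Stard4 lost theirs without siTfap2c replicate 1 and without siKlf5 replicate 2 (adjusted p up to 0.071 and 0.096). Hmgcs1 lost its call in 3 of these fits (adjusted p up to 0.12), Ebp in 3 (up to 0.14) and Hsd17b7 in all 4 (up to 0.12).

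**Figure D3:**
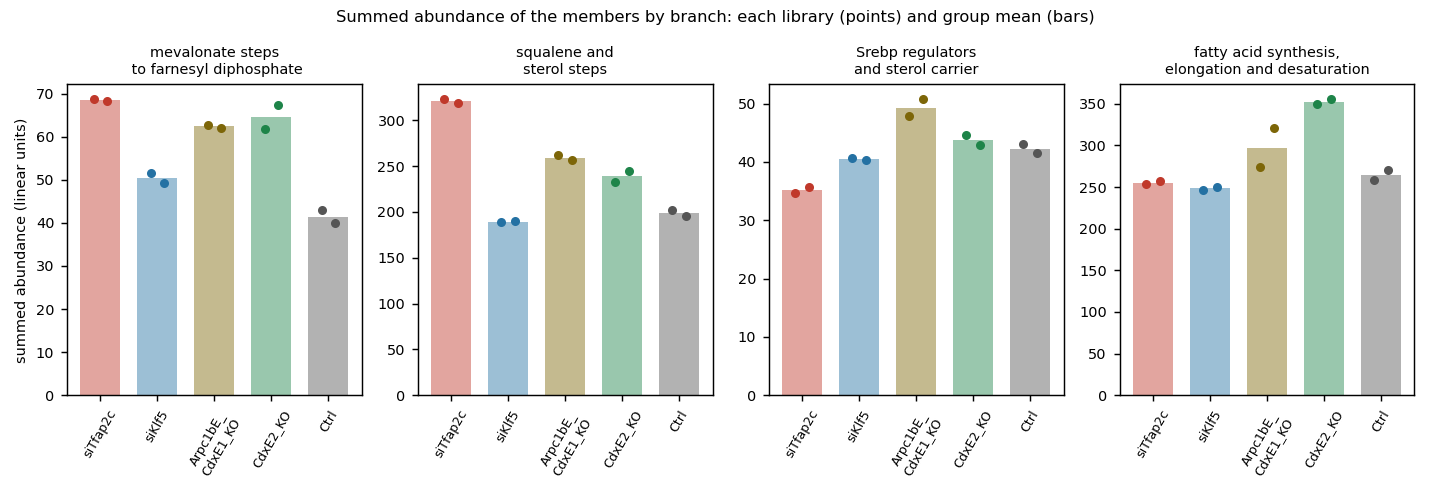
Summed abundance of the genes of each branch in linear units, with a point for each library and a bar from 0 to each group's mean. The squalene and sterol sum is highest in siTfap2c embryos at 323 and 319 units, against 202 and 196 in Ctrl embryos.

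Summed by branch, the squalene and sterol genes reached 323 and 319 linear units in siTfap2c embryos, 189 and 190 in siKlf5 embryos, and 202 and 196 in Ctrl embryos. A sum weights each gene by its level on this unnamed scale, so single genes can set it. Fdft1 averaged 185 linear units in siTfap2c embryos and 106 in Ctrl embryos. The mevalonate sum was 68.7 and 68.2 in siTfap2c embryos, 51.7 and 49.2 in siKlf5 embryos, and 42.9 and 40.0 in Ctrl embryos. The fatty acid sum was 254 and 257 in siTfap2c embryos, 246 and 250 in siKlf5 embryos, and 259 and 271 in Ctrl embryos. Within it, Scd2 averaged 36.9 in siTfap2c embryos and 5.20 in Ctrl embryos, while Fasn averaged 127 in siTfap2c embryos and 157 in Ctrl embryos. The regulator sum was 34.7 and 35.6 in siTfap2c embryos, below the 43.0 and 41.6 in Ctrl embryos.

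In the motif knockouts many of the genes stood above Ctrl, as did genes in general. In Arpc1bE_CdxE1_KO embryos 6 of the 30 genes were called higher and 0 lower, against 23.2% and 0.815% of the 10920 genes tested. In CdxE2_KO embryos 9 were called higher and 0 lower, against 28.5% and 1.44%. The members' shares lie near these backgrounds. With libraries centred on their medians, the calls over all genes were 178 higher and 143 lower in Arpc1bE_CdxE1_KO embryos, in place of 2532 and 89, and 288 higher and 393 lower in CdxE2_KO embryos, in place of 3113 and 157. The median difference over all genes was 0.27 in Arpc1bE_CdxE1_KO embryos and 0.29 in CdxE2_KO embryos, and the members' medians were 0.29 and 0.35. With libraries scaled to the same sum the members' medians were -0.02 and 0.10, beside 0.00 and 0.05 over all genes. The higher linear sums are found in the 4 motif knockout libraries and in no other, so library scale and motif knockout cannot be told apart. The smallest nonzero value was 0.000504 to 0.00127 log2 units in these libraries. It was 1.4e-07 to 3.4e-06 in the knockdown and Ctrl libraries, although Ctrl shares a deposited table with the motif knockouts. Whether the motif knockout libraries were quantified differently from Ctrl was not tested.

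Hmgcs1 was the member with the lowest adjusted p in both motif knockouts. It stood at 4.67 and 4.73 in Arpc1bE_CdxE1_KO embryos, 4.72 and 4.92 in CdxE2_KO embryos, and 4.05 and 4.02 in Ctrl embryos. The difference was 0.67 ± 0.11 in Arpc1bE_CdxE1_KO embryos (adjusted p = 0.0098) and 0.79 ± 0.11 in CdxE2_KO embryos (adjusted p = 0.0052). Scaled to the same sum, these became 0.36 (adjusted p = 0.13) and 0.51 (adjusted p = 0.045). Centred on the libraries' medians they were 0.35 (adjusted p = 0.13) and 0.46 (adjusted p = 0.052). The call in CdxE2_KO embryos held in all 4 fits that left out 1 library (adjusted p up to 0.046), and the call in Arpc1bE_CdxE1_KO embryos was lost without Ctrl replicate 1 and without Ctrl replicate 2 (adjusted p up to 0.076).

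Fdps stood at 4.81 and 4.83 in Arpc1bE_CdxE1_KO embryos, 4.81 and 4.82 in CdxE2_KO embryos, and 4.38 and 4.22 in Ctrl embryos. Scd1 stood at 4.31 and 4.50 in Arpc1bE_CdxE1_KO embryos, 4.55 and 4.50 in CdxE2_KO embryos, and 3.85 and 3.87 in Ctrl embryos. Scd2 stood at 3.56 and 3.38 in Arpc1bE_CdxE1_KO embryos, 3.04 and 3.49 in CdxE2_KO embryos, and 2.59 and 2.67 in Ctrl embryos. These 3 genes and Insig2 were called higher in both motif knockouts as deposited. Insig2 differed by 0.85 in Arpc1bE_CdxE1_KO embryos (adjusted p = 0.018) and by 0.63 in CdxE2_KO embryos (adjusted p = 0.033). Fdft1 was called in Arpc1bE_CdxE1_KO embryos (0.43, adjusted p = 0.014). Sqle (0.46, adjusted p = 0.018), Fasn (0.49, adjusted p = 0.030), Acly (0.33, adjusted p = 0.043) and Srebf2 (0.47, adjusted p = 0.049) were called in CdxE2_KO embryos. With libraries scaled to the same sum, 0 members were called in Arpc1bE_CdxE1_KO embryos and only Hmgcs1 in CdxE2_KO embryos. Without Ctrl replicate 1 and without Ctrl replicate 2 all 6 calls in Arpc1bE_CdxE1_KO embryos were lost (adjusted p up to 0.11). In CdxE2_KO embryos every call but that of Hmgcs1 was lost in at least 3 of the 4 fits that left out 1 library, with adjusted p up to 0.22 for Acly.

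**Figure D4:**
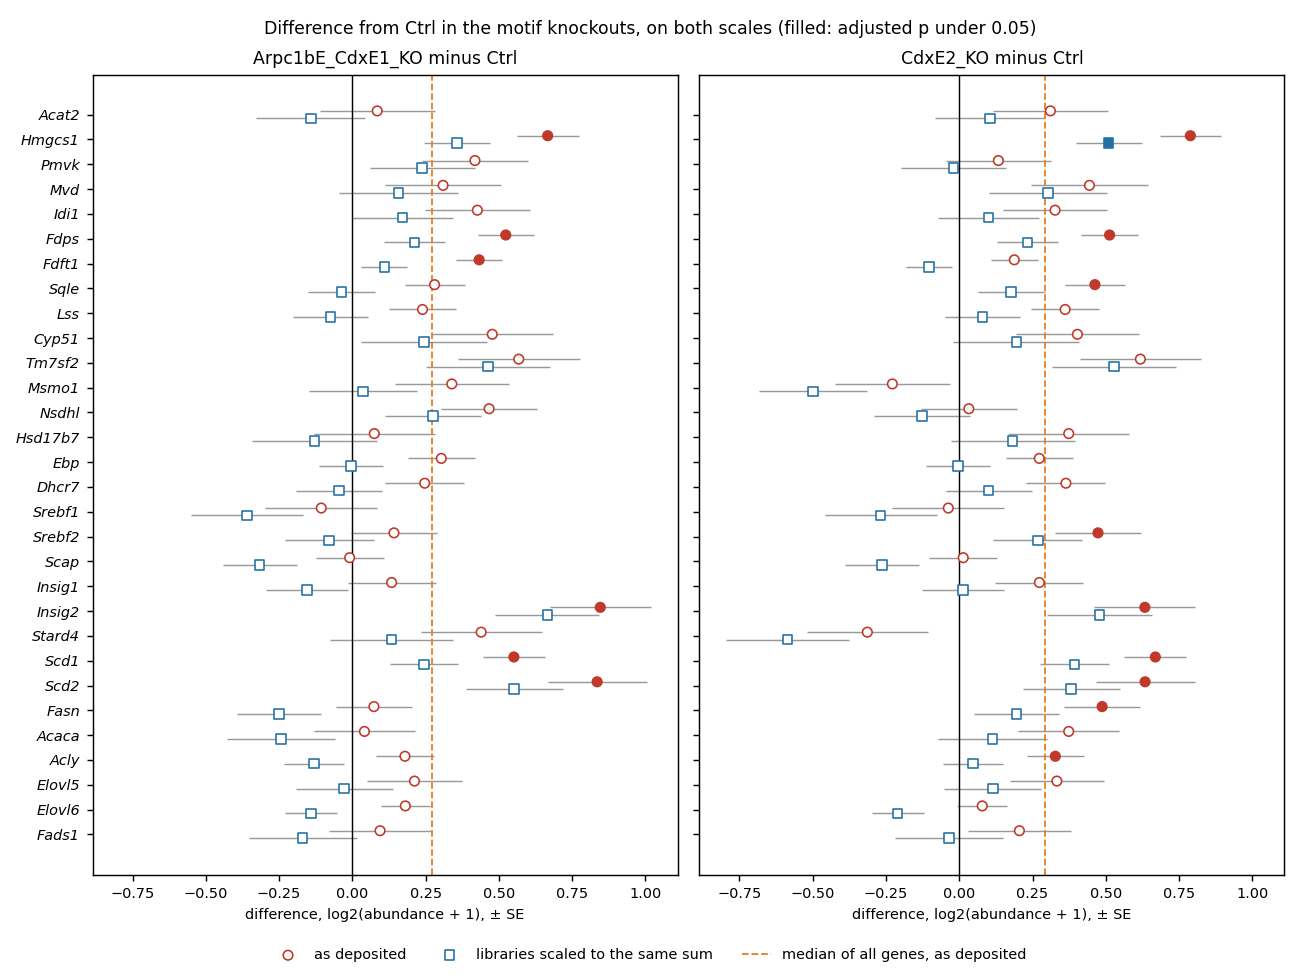
Difference from Ctrl, in log2 units with its SE, of the 30 genes tested in Arpc1bE_CdxE1_KO embryos (left) and CdxE2_KO embryos (right), as deposited (circles) and with libraries scaled to the same sum (squares). Filled symbols have an adjusted p under 0.05 and the dashed line is the median of all genes as deposited, 0.27 on the left and 0.29 on the right. Scaling moves the genes to the left, and Hmgcs1 in CdxE2_KO embryos is the only filled square.

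Compared directly, CdxE2_KO and Arpc1bE_CdxE1_KO embryos differed in 0 of the 30 genes by limma, against 0.0458% of all genes tested, with 5 members at an unadjusted p under 0.05. The largest differences were those of Stard4 (-0.75, adjusted p = 0.32) and the sterol oxidase Msmo1 (-0.57, adjusted p = 0.38). Stard4 stood at 3.77 and 3.16 in CdxE2_KO embryos and at 4.13 and 4.30 in Arpc1bE_CdxE1_KO embryos. Fasn differed by 0.41 (adjusted p = 0.36), and without Arpc1bE_CdxE1_KO replicate 2 it was called (0.60, adjusted p = 0.040).

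Further genes of the same pathways, beyond the 33, are set beside the 12.6% of all genes tested called higher and 11.9% called lower in siTfap2c embryos. Of 22 other sterol, isoprenoid and Srebp-processing genes tested, 5 were called higher and 0 lower, with a median difference of 0.13. Prkaa1, a catalytic subunit of the AMP-activated kinase, rose by 0.61 (adjusted p = 0.00053) and the Ebp relative Ebpl by 0.62 (adjusted p = 0.019). Ebpl lost its call in 3 of the 4 fits that left out 1 library (adjusted p up to 0.11). Of 22 other fatty acid synthesis genes tested, 3 were called higher and 4 lower, shares near those of all genes, with a median difference of 0.06. The dehydratases Hacd3 and Hacd2, which act in chain elongation, rose by 0.58 (adjusted p = 0.0020) and 0.68 (adjusted p = 0.010), and the acyl-CoA synthetase Acsl3 fell by 0.66 (adjusted p = 0.0015). Hacd2 lost its call in 2 of the 4 fits (adjusted p up to 0.084).

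In siKlf5 embryos 1 of the 22 other sterol genes was called higher and 2 lower, against 2.25% and 5.27% of all genes tested. They were the sterol reductase Lbr (0.43, adjusted p = 0.015), the vesicle coat gene Sec23a (-0.60, adjusted p = 0.024) and the kinase subunit gene Prkaa2 (-0.71, adjusted p = 0.038). Of the 22 other fatty acid genes 0 were called higher and 2 lower, against the same shares. These were the synthetase Acsl6 (-0.90, adjusted p = 0.039) and the carboxylase Acacb (-0.57, adjusted p = 0.042). All 5 lost their calls in at least 2 fits that left out 1 library.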

How the data were processed

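Total RNA of zona-free 8-cell embryos without polar bodies was reverse transcribed from random primers, and ribosomal cDNA was removed, per the labels' protocols. HISAT2 2.1.0, SAMtools 1.7, StringTie 1.3.4, Cufflinks and mm10 are named in the submitters' processing notes. The deposited values are log2 of an abundance plus 1, in 3 tables. Exact zeros, 26.0% to 34.5% of values, can be failed estimates.

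Deposited log2 values were fitted with limma 3.58.1 (R 4.3.3; eBayes, trend on), after a filter of 1 linear unit in at least 2 libraries. Each table was to be fitted by itself, but Ctrl stands in the motif knockout table. Knockdowns were therefore fitted across tables, on all 10 libraries, and motif knockouts on the 6 libraries of their table. The fits were tested on simulated data that held no difference in scale between libraries. That test does not cover the higher sums of the motif knockout libraries. Library values are given for the genes called in a knockdown, up to 8 called in a motif knockout, and others singled out after their values were seen. Of each other list, up to 3 called genes with the lowest p are named, and some are not reported here. Genes and lists were chosen with earlier results of these data known. The alternatives tried were 2 other scalings, an added constant of 0.1, no filter, a filter of 5 units, other sets of libraries, a replicate block and leaving out each library. Positions are from GENCODE M21, and promoters from RefSeq.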

Additional observations from a re-analysis of the deposited data

How the results depend on the processing

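Replicate numbers did not pair the libraries, since deviations of same-numbered libraries correlated at -0.05 to 0.04 over 11195 genes. With the replicate block, the Tfap2c knockdown had 8 genes called higher and 2 lower (2615 over all genes), the Klf5 knockdown 1 and 1 (706), Arpc1bE_CdxE1_KO 6 and 0 (2483) and CdxE2_KO 7 and 0 (3087).

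Counts of the 33 genes in the Tfap2c knockdown stayed within 1.5 times the reported count under every setting, and its calls over all genes did so except with a library left out. Centred on library medians, the Klf5 knockdown had 2 genes called higher. In Arpc1bE_CdxE1_KO embryos 0 were called higher with centring and 0 with equal sums, and calls over all genes were 321 and 293, or 1166 with no filter. In CdxE2_KO embryos 0 were called with centring, 1 with equal sums and 4 with no filter, and calls over all genes were 681, 693 and 1858. Acly in CdxE2_KO embryos turned to -0.00323 with centring (adjusted p = 0.99). With no filter the Klf5 knockdown had 507 calls over all genes. Between the motif knockouts these were 0 with no filter (5 reported) and 14 on all 10 libraries. Among genes tested, AP-2 matches reached 29.0% and GC boxes 69.2%, a comparison added after the data were seen.

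Leaving out 1 library gave 6 to 7 genes higher and 2 lower in siTfap2c against Ctrl embryos (1535 to 1773 calls over all genes). The ranges were 0 to 1 higher and 0 lower in siKlf5 embryos (211 to 317), and 7 to 8 higher and 0 to 2 lower between the knockdowns (1587 to 1785). They were 0 to 7 higher in Arpc1bE_CdxE1_KO embryos (161 to 2864), 1 to 3 in CdxE2_KO embryos (514 to 1099) and 0 to 1 between the motif knockouts (4 to 200). A group left with 1 library is assumed to vary like the others. Without Ctrl replicate 1 and without Ctrl replicate 2, Arpc1bE_CdxE1_KO embryos had 313 and 161 calls over all genes, so that count rests on both Ctrl libraries. Apart from the scalings, fewer libraries and the filter, the cause of these shifts was not tested. Depth is unknown, so precision at low values cannot be given.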

Other observations

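Genes of neighbouring lipid pathways were also called in siTfap2c embryos, where 12.6% of all genes tested were called higher and 11.9% lower. Of 18 cholesterol uptake, storage and efflux genes tested, 2 were called higher and 5 lower. The lipoprotein receptor gene Lrp8 rose by 1.03 on the log2 scale (adjusted p = 0.0023) and Npc2, which carries cholesterol out of lysosomes, fell by 0.50 (adjusted p = 0.0017). Of 20 glycerolipid synthesis genes, 1 was called higher and 3 lower. The acyltransferase gene Agpat2 stood at a difference of -1.71 from Ctrl (adjusted p = 2.5e-05), the lipid droplet coat gene Plin3 at -0.84 (adjusted p = 0.00022) and the phosphatidylcholine synthesis gene Pcyt1b at 0.77 (adjusted p = 0.0014). Of 16 fatty acid oxidation genes, 1 was called higher and 2 lower. The glycerolipid and oxidation counts lie at or near the shares of all genes, with median differences of 0.11 and -0.05. The dehydrogenase gene Acadl differed by -1.64 (adjusted p = 5.1e-06) and the electron carrier gene Etfb by -0.58 (adjusted p = 0.00088). The genes named here for siTfap2c embryos kept their calls in all 4 fits that left out 1 library.

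In siKlf5 embryos, where 2.25% of all genes tested were called higher and 5.27% lower, 0 of the 18 uptake genes were called by limma, with 3 at an unadjusted p under 0.05. Of the glycerolipid genes 2 were called lower, Agpat2 (-0.80, adjusted p = 0.0081) and the phosphatase gene Lpin1 (-0.87, adjusted p = 0.046). Of the oxidation genes 1 was called lower, Hadha of the mitochondrial trifunctional protein (-0.40, adjusted p = 0.044), a share near that of all genes. Agpat2 lost its call in 3 of the 4 fits that left out 1 library, and Lpin1 and Hadha in all 4. All tests are limma with Benjamini-Hochberg adjustment over all genes tested.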
